A study of Homo sapiens with 6 samples.

Results

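The ATP-binding cassette (ABC) transporters described here are 10 genes of one protein family, read from 17 of the 22215 probe sets tested on the arrays: ABCB1, ABCB4, ABCB6, ABCC1, ABCC2, ABCC3, ABCC4, ABCG2, ABCA1 and ABCG1. Every probe set annotated to one of these genes was taken, and 1 of the 17 is annotated to both ABCB1 and ABCB4 and is treated as shared. The genes were chosen from the log2 differences of this same comparison, OCRL siRNA against control siRNA, so their changes are given as a description, without a test of their own. The cells were HK2, a human cell line immortalised from proximal tubule epithelium of the kidney, grown in medium with insulin, transferrin and selenium. One group was transfected at 30% confluence with OCRL siRNA and the other with a non-targeting siRNA, called control siRNA here; both received Dharmafect 4 and were left for 96 h. There were 3 arrays of OCRL siRNA cells and 3 of control siRNA cells, described by the labels as independent experiments. OCRL, the phosphoinositide phosphatase that was targeted, stood at 7.47 ± 0.064 in OCRL siRNA cells and 9.49 ± 0.014 in control siRNA cells by its brighter probe set (log2 intensity, mean ± SD, n = 3 each), which left 24.6% of the control level. Its dimmer probe set stood at 6.63 ± 0.186 in OCRL siRNA cells and 7.64 ± 0.107 in control siRNA cells, which left 49.7%.

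ABC transporters use the energy of ATP to carry substrates across membranes. In the proximal tubule, exporters of the apical membrane move drugs, organic anions and conjugated compounds into the urine, and exporters of the basolateral membrane move them back toward the blood. Other members serve lipid export: ABCA1 and ABCG1 hand cellular cholesterol to apolipoproteins and lipoprotein particles, and ABCB4 moves phosphatidylcholine across the bile canalicular membrane of the liver.

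The drug exporter gene ABCB1 fell most, to 39.1% of its control level, and ABCC1, ABCC4 and ABCA1 fell as well, whereas ABCC3 rose 1.47-fold. ABCB6, ABCC2, ABCG2, ABCG1 and ABCB4 by its own probe set did not pass the threshold. In the fit over the whole table (limma, adjusted p under 0.05), 7 member probe sets were lower, 2 were higher and 8 did not pass. Over all probe sets 23.1% passed, 9.89% lower and 13.2% higher. By the brightest probe set of each gene, 5 of the 10 members passed, against 26.0% of 11963 genes (15.5% higher, 10.5% lower), and 6 did not overlap between groups, against 44.9%. The groups did not overlap in 10 of the 17 member probe sets, against 40.7% of all probe sets. The median log2 difference, OCRL siRNA minus control siRNA, was -0.15 over the 17 and -0.0067 over all probe sets. Without control siRNA replicate 2, 5 of the 17 passed in place of 9, and over all probe sets 3765 passed in place of 5137. After median centring, which sets the array medians equal, 42.0% of all probe sets that passed were higher, against 57.2% as deposited.

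**Figure D1:**
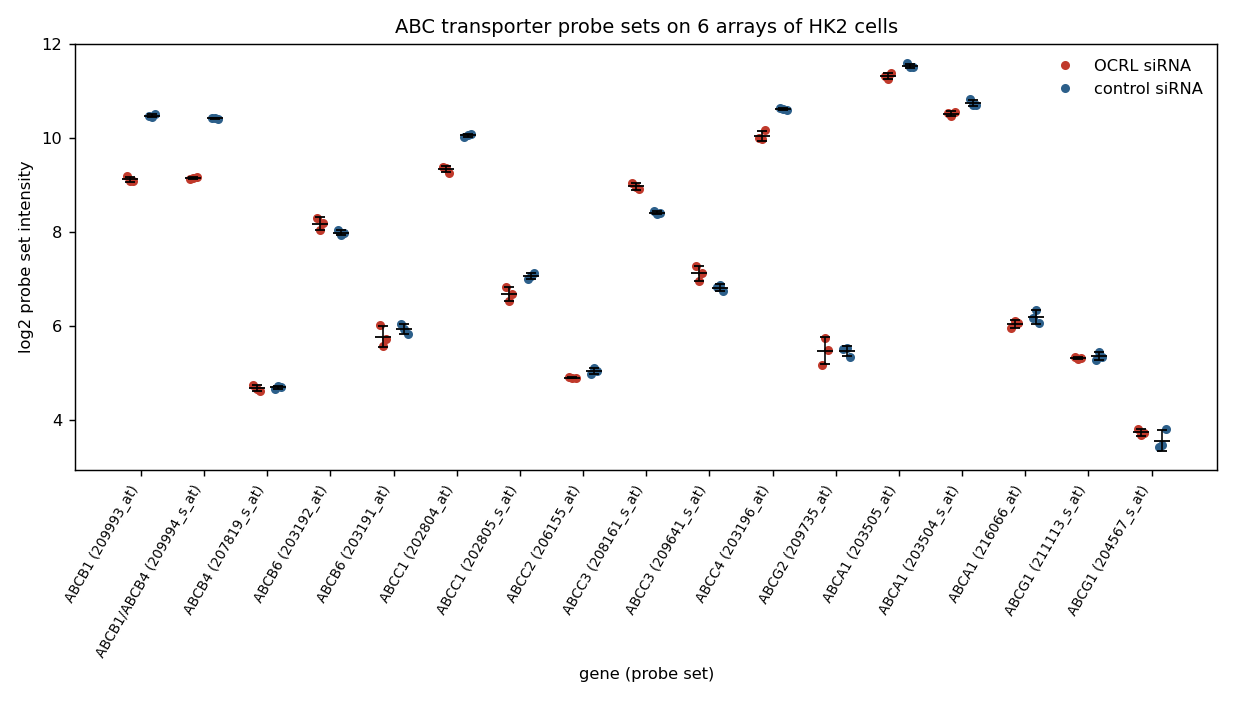
Log2 probe set intensity (vertical axis) of each of the 17 member probe sets (horizontal axis) on the 3 OCRL siRNA arrays (red, left of each pair) and the 3 control siRNA arrays (blue); bars are mean ± SD. The ABCB1 probe set and the one shared by ABCB1 and ABCB4 lie between 9.09 and 9.19 in OCRL siRNA cells. In control siRNA cells they lie between 10.40 and 10.52.

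Promoter sequences are shown for the members that fell and for ABCB6, which did not pass, so that the letters of the start regions can be compared beside the values. RefSeq (GRCh38.p14) windows were at hand for 6 of the 10 members, in 11 windows, and not for ABCB4, ABCC1, ABCC3 and ABCG1. The windows of ABCC2 and ABCG2, which did not pass either, were searched but are not printed. The 150 bases before each start are given 5′ to 3′ on the strand of the gene, and ABCB1 has 2 annotated starts. The windows lie on the minus strand at chr7:87600885-87601034 and chr7:87713296-87713445 for ABCB1, chr13:95301452-95301601 for ABCC4, chr9:104928156-104928305 for ABCA1 and chr2:219218959-219219108 for ABCB6. Capitals mark every match, on either strand, to the 8 motifs searched.
ABCB1 downstream start: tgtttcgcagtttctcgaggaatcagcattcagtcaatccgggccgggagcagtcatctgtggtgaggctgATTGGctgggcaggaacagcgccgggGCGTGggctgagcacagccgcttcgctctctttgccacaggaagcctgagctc
ABCB1 upstream start: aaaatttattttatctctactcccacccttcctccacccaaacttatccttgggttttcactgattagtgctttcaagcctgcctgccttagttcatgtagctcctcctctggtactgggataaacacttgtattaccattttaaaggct
ABCC4: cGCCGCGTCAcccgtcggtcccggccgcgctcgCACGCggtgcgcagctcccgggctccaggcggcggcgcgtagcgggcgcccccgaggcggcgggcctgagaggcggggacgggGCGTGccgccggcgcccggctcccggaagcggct
ABCA1: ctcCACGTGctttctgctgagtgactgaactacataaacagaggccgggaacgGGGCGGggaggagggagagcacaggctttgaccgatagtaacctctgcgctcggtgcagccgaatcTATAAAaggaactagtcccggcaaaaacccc
ABCB6: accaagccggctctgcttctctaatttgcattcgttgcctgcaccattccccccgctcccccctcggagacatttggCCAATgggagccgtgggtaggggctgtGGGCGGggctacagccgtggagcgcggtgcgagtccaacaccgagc

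The motifs were the inverted CCAAT box, searched as ATTGG, the GC box, searched as GGGCGG, and the TATA box, searched as TATAAA. The others were the E-box, with the letters CACGTG, the xenobiotic response core, with the letters GCGTG, the antioxidant response core, with the letters TGACNNNGC, the AP-1 site, with the letters TGANTCA, and the cAMP response element, with the letters TGACGTCA. The downstream ABCB1 window held the inverted CCAAT box 79 to 75 bases before the start and the xenobiotic response core 53 to 49 bases before it, and the upstream window held none of the 8. ABCC4 had the xenobiotic response core on both strands and the antioxidant response core, while ABCA1 had an E-box, a GC box and, 31 to 26 bases before the start, a TATA box. The ABCB6 window held the GC box and, on the strand of the gene, CCAAT itself, the opposite orientation to the box of ABCB1. Base composition differed widely among them, from 41.3% G and C in the upstream ABCB1 window to 84.7% in that of ABCC4. Windows of the same length in the RefSeq table numbered 34941 and were searched on both strands. Of them, 23.5% held the CCAAT box in either orientation, 36.7% the GC box, 6.72% the TATA box and 4.55% the E-box. The antioxidant response core was in 7.29% of them, the xenobiotic response core in 23.5%, the AP-1 site in 4.18% and the cAMP response element in 1.39%. None of the 8 motifs was shared by the windows of ABCB1, ABCC4 and ABCA1, and no matches overlapped each other within a window. Among the windows not printed, those of ABCG2 numbered 1, 2 and 3 by position each held the xenobiotic response core. ABCG2 windows 2 and 3 also held the GC box, and window 3 the E-box. ABCG2 windows 4 and 5 and the ABCC2 window held no match. The arrays do not tell which ABCB1 start was used.

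ABCB1 encodes P-glycoprotein (MDR1), the apical exporter of many lipophilic drugs. By the probe set annotated to it alone it read 9.19, 9.09 and 9.10 in OCRL siRNA cells and 10.47, 10.45 and 10.52 in control siRNA cells (log2 intensity). The groups were far apart, with 1.27 log2 units between the highest OCRL siRNA array and the lowest control siRNA array. The difference was -1.36 (SE 0.048, 95% interval -1.47 to -1.24), a 2.56-fold fall. Among 11963 genes it was the 17th largest fall. Over 13 alternative settings (other normalizations, fits and arrays left out, with no fold minimum) the difference ran from -1.40 to -1.34, and it passed in each.

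ABCB4 encodes MDR3, a phospholipid translocase that is the nearest relative of ABCB1 and its neighbour on chromosome 7. Its own probe set read 4.74, 4.67 and 4.61 in OCRL siRNA cells and 4.65, 4.73 and 4.71 in control siRNA cells. All 6 values lay below the lower quartile of their array, and the groups overlapped. The difference was -0.02 (95% interval -0.14 to 0.10), and 0.0063 after quantile normalization. The probe set shared by ABCB1 and ABCB4 moved as that of ABCB1 did: 9.13, 9.16 and 9.18 in OCRL siRNA cells and 10.43, 10.43 and 10.40 in control siRNA cells. Its difference was -1.26 (SE 0.041), a 2.40-fold fall. The part of this signal that each of the 2 genes contributed cannot be told apart, so the fall is given for ABCB1 and not for ABCB4. In RNA from whole cultures, less RNA in every cell and fewer cells carrying it cannot be told apart either.

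The genes whose course over the 6 arrays was closest to that of ABCB1, by the root mean square distance of log2 values after the control mean was subtracted, were CRISPLD2 (distance 0.062), FGB (0.076), CFB (0.076), TGFB2 (0.078) and F3 (0.094). Their differences ran from -1.43 for F3 to -1.30 for CFB. The distance was taken over all 6 arrays, so genes with a fall of similar size come first by construction.

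ABCC1 encodes MRP1, a basolateral exporter of glutathione conjugates and of many drugs. Its brighter probe set read 9.39, 9.36 and 9.27 in OCRL siRNA cells and 10.03, 10.06 and 10.10 in control siRNA cells, with no overlap. The difference was -0.72 (SE 0.050, 95% interval -0.84 to -0.60), a 1.65-fold fall. The dimmer probe set read 6.84, 6.55 and 6.69 in OCRL siRNA cells and 6.996, 7.07 and 7.13 in control siRNA cells. It fell by 0.37 on the log2 scale (SE 0.080), so both probe sets pointed down and the dimmer one moved less. The dimmer one missed the threshold without control siRNA replicate 2 or 3 or OCRL siRNA replicate 3 (limma adjusted p = 0.0508, 0.0593 and 0.0548).

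ABCC4 encodes MRP4, which exports cyclic nucleotides, prostaglandins and urate and lies in the apical membrane of the proximal tubule. Its single probe set read 9.999, 9.98 and 10.18 in OCRL siRNA cells and 10.65, 10.63 and 10.60 in control siRNA cells. The 3 control arrays were tightly grouped, and OCRL siRNA replicate 3 was the nearest to them, still 0.42 lower. The difference was -0.58 (SE 0.063, 95% interval -0.72 to -0.43), a 1.49-fold fall, and it passed in 13 of 13 settings.

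ABCC3 encodes MRP3, a basolateral exporter of glucuronides and bile salts, and it moved the other way. Its brighter probe set read 9.05, 8.97 and 8.91 in OCRL siRNA cells and 8.45, 8.38 and 8.41 in control siRNA cells, all 3 OCRL siRNA arrays above all 3 controls. The difference was 0.56 (SE 0.051, 95% interval 0.44 to 0.68). The dimmer probe set read 7.28, 6.96 and 7.13 in OCRL siRNA cells and 6.84, 6.89 and 6.75 in control siRNA cells, a difference of 0.30 (SE 0.086). Its groups were only 0.072 apart, and it passed in 3 of 11 settings. It missed the threshold without any one of the arrays other than OCRL siRNA replicate 2, at limma adjusted p = 0.0762 to 0.138, and with the replicate number as a block (adjusted p = 0.0728), after quantile normalization (0.0782) and after median centring (0.0874). ABCC3 was thus the 1 member with probe sets that passed as higher.

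ABCC2 encodes MRP2, the apical exporter of glutathione and glucuronide conjugates. Its probe set read 4.91, 4.89 and 4.90 in OCRL siRNA cells and 4.99, 5.12 and 5.06 in control siRNA cells, below the lower quartile on every array. The groups did not overlap, but the difference was -0.15 (95% interval -0.27 to -0.04) and did not pass. RMA compresses differences of dim probe sets, so the size of any change of ABCC2 is uncertain. ABCC2 was lower with a pass in 3 of 12 settings: without control siRNA replicate 1 (limma adjusted p = 0.0318), after median centring (0.0298) and with array weights (0.0234).

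**Figure D2:**
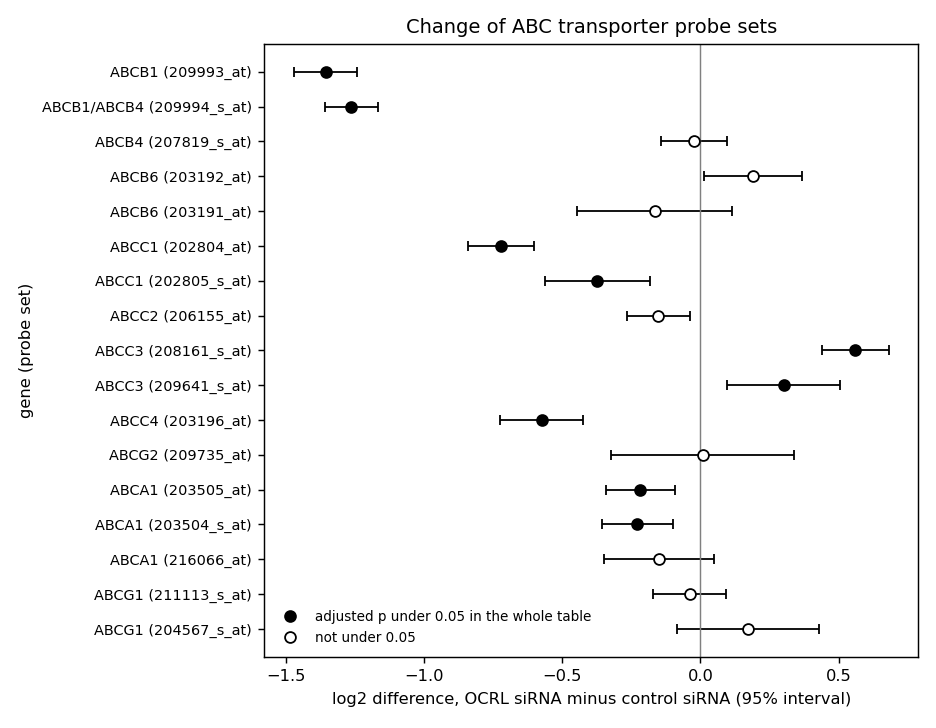
Log2 difference, OCRL siRNA minus control siRNA, of each member probe set (horizontal axis) with its 95% interval from limma; filled points had an adjusted p under 0.05 over the whole table and open points did not. The falls run from -1.36 for ABCB1 to -0.22 for ABCA1, and both ABCC3 probe sets lie to the right of 0.

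ABCA1, the exporter that loads cholesterol onto apolipoprotein A-I, fell slightly. Its brightest probe set read 11.33, 11.26 and 11.39 in OCRL siRNA cells and 11.60, 11.52 and 11.52 in control siRNA cells (difference -0.22, SE 0.052), which left 86.0% of the control level. The second probe set read 10.53, 10.47 and 10.57 in OCRL siRNA cells and 10.83, 10.72 and 10.70 in control siRNA cells (difference -0.23, SE 0.054). Neither overlapped between groups, and the falls were of similar size. The dimmest of the 3 overlapped, with a difference of -0.15 (95% interval -0.35 to 0.05). The brightest passed in 8 of 13 settings and the second in 8 of 12, and both missed the threshold without control siRNA replicate 2 or without OCRL siRNA replicate 1 or 2 (limma adjusted p = 0.0531 to 0.0778). The brightest also missed it without control siRNA replicate 1 (0.0568) or 3 (0.0615), and the second without OCRL siRNA replicate 3 (0.0518).

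ABCG1, which passes cholesterol on to high-density lipoprotein, was dim on these arrays. Its brighter probe set read 5.35, 5.30 and 5.32 in OCRL siRNA cells and 5.28, 5.46 and 5.35 in control siRNA cells, a difference of -0.04 (95% interval -0.17 to 0.09). The dimmer one lay below the lower quartile on all 6 arrays and differed by 0.17 (95% interval -0.09 to 0.43). Groups overlapped in both. The dimmer one passed in 1 of 11 settings, without control siRNA replicate 3 (limma adjusted p = 0.0298).

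ABCG2, the apical exporter of urate and of many drugs also known as BCRP, had 1 probe set. It was dim and read 5.18, 5.75 and 5.50 in OCRL siRNA cells and 5.52, 5.53 and 5.35 in control siRNA cells. The value of OCRL siRNA replicate 1 lay below the lower quartile of its array. The OCRL siRNA arrays lay on both sides of the controls and were the most scattered of the member probe sets (SD 0.285). The difference was 0.0084 as deposited and -0.038 after median centring, and its 95% interval of -0.32 to 0.34 leaves room for a change of either sign.

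ABCB6 encodes a transporter linked to porphyrin transport. Its brighter probe set read 8.31, 8.04 and 8.19 in OCRL siRNA cells and 8.04, 7.94 and 7.99 in control siRNA cells (difference 0.19, 95% interval 0.01 to 0.37). The dimmer one read 6.02, 5.58 and 5.73 in OCRL siRNA cells and 6.05, 5.94 and 5.83 in control siRNA cells (difference -0.17, 95% interval -0.45 to 0.12). The 2 probe sets pointed in opposite directions and neither passed. The brighter one was higher with a pass without OCRL siRNA replicate 2 (limma adjusted p = 0.0399) and with dim probe sets left out (0.0445).

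The rest of the ABC family was read from 27 of 38 other genes, with the brightest probe set of each. Of these, 4 were higher, 2 were lower and 21 did not pass, with a median difference of -0.07 (all genes 0.0005), and 26.0% of all genes passed. ABCA5, a lysosomal lipid transporter, read 5.88, 6.05 and 5.94 in OCRL siRNA cells and 5.37, 5.45 and 5.35 in control siRNA cells (difference 0.57, SE 0.058, limma adjusted p = 8.02e-04). ABCC5, or MRP5, an exporter of cyclic nucleotides like ABCC4, read 9.99, 10.04 and 10.01 in OCRL siRNA cells and 9.59, 9.72 and 9.64 in control siRNA cells (0.36, SE 0.048, adjusted p = 0.00235). In both genes all OCRL siRNA arrays lay above all controls. The ribosome recycling factor ABCE1, which transports nothing, was lower (-0.29, SE 0.046) by both of its probe sets, and ABCD4, of lysosomal vitamin B12 export, was lower (-0.23, SE 0.042) by its brighter one. ABCA12 (0.41, SE 0.099) and the peptide transporter subunit TAP1 (0.21, SE 0.054) were higher, but ABCA12 missed the threshold without any one array other than OCRL siRNA replicate 1 (adjusted p = 0.0510 to 0.0793). TAP1 missed it in the same 5 cases (0.0577 to 0.115), after quantile normalization (0.0801) and after median centring (0.0794). ABCF2 and TAP2, which did not pass by their brightest probe set, had dimmer probe sets that were lower.

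**Figure D3:**
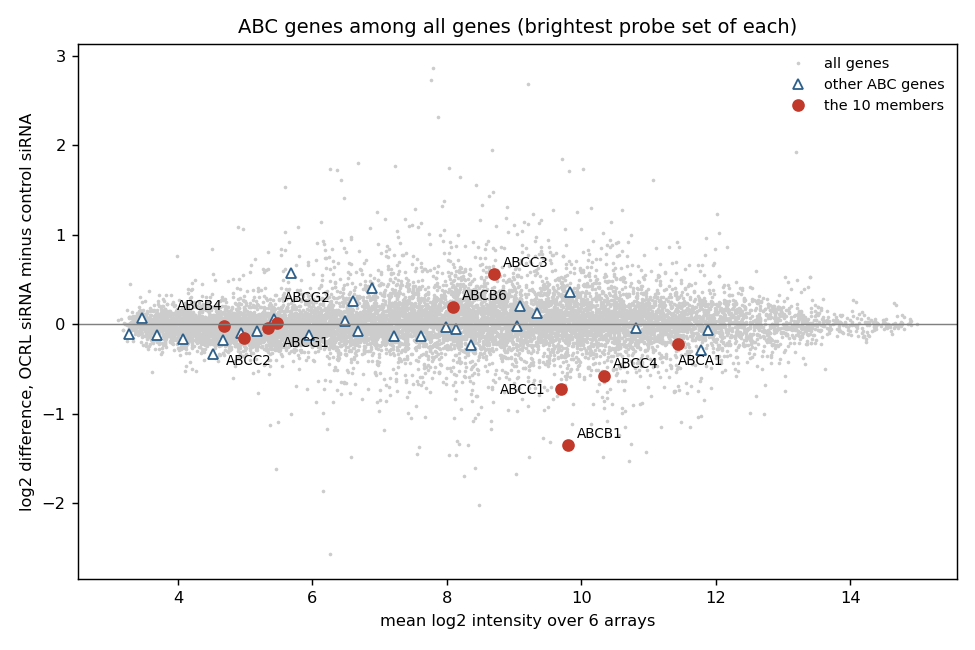
Log2 difference, OCRL siRNA minus control siRNA (vertical axis), against the mean log2 intensity over 6 arrays (horizontal axis) for the brightest probe set of each of 11963 genes (grey), the 10 members (red circles) and 27 other ABC genes (open triangles). ABCB1 lies at -1.36, ABCC1 at -0.72 and ABCC4 at -0.58, below every other ABC gene plotted, of which the lowest, ABCB11, is at -0.33 and did not pass.

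Of the genes around ABCB1 on chromosome 7, RUNDC3B was the 1 that passed as lower. Of 11 neighbours 10 were measured, of which 3 were higher, 1 was lower and 6 did not pass, and their median difference was 0.12. Of all genes 15.5% were higher and 10.5% were lower, with a median difference of 0.0005. RUNDC3B, whose annotated span overlaps that of ABCB1, was lower by 0.77 (SE 0.155, limma adjusted p = 0.0129), but it was dim and lay under the lower quartile on 4 of the 6 arrays. CROT, which overlaps ABCB4, differed by 0.11 (adjusted p = 0.16). TMEM243 was higher by 0.67 (SE 0.040, adjusted p = 1.04e-04). The calcium-binding protein gene SRI was higher by 0.19 in its brighter probe set, while its dimmer one differed by -0.32 and did not pass, and the replication kinase subunit DBF4 was higher by 0.31. SRI and DBF4 missed the threshold without control siRNA replicate 2 or without any one OCRL siRNA array, DBF4 also without control siRNA replicate 3, and SRI also with the replicate number as a block (adjusted p = 0.0543) and after median centring (0.0719). The count of neighbours that passed was 2 without control siRNA replicate 2 or any one OCRL siRNA array.

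**Figure D4:**
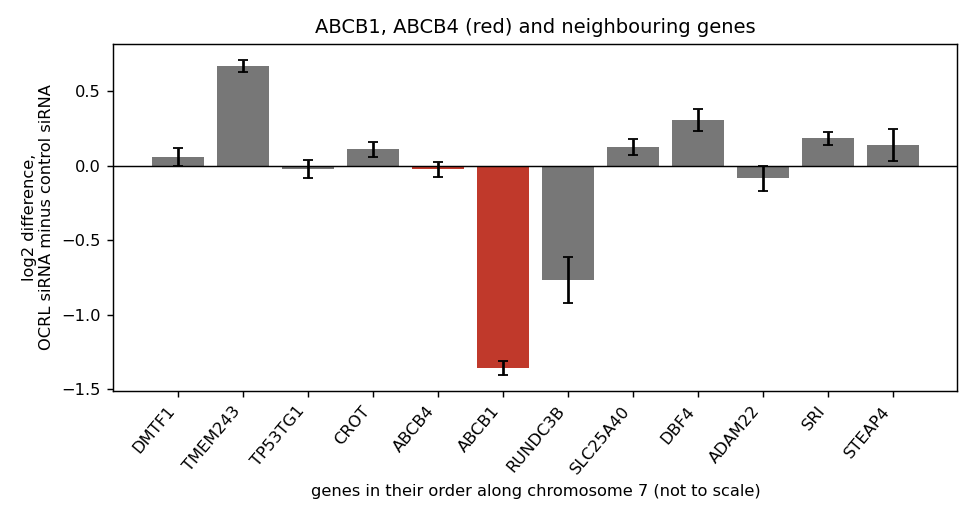
Log2 difference, OCRL siRNA minus control siRNA (bars, with the moderated SE), of ABCB1 and ABCB4 (red) and the measured neighbours (grey), in their order along chromosome 7 and not to scale. ABCB1 at -1.36 stands beside ABCB4 at -0.02 and SLC25A40 at 0.13.

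The gene lists that follow are read beside all genes, of which 15.5% were higher and 10.5% were lower. Like the lists of other ABC genes and of neighbours, they were chosen with earlier results of these data known. Their counts are therefore a description and not a test. Of 29 measured transcription factors known to act on transporter genes, 3 were higher, 0 were lower and 26 did not pass by limma, with 6 at an unadjusted p under 0.05. The vitamin D receptor VDR was higher by 0.89 (SE 0.077, adjusted p = 3.99e-04), PPARG by 0.55 (SE 0.049, adjusted p = 4.60e-04) and EPAS1 by 0.22 (SE 0.043, adjusted p = 0.0121). Of the 4 VDR probe sets, 2 were higher and 2 did not pass, and of the 2 EPAS1 probe sets the dimmer one did not pass. The count of this list was 5 without control siRNA replicate 1 and with array weights, and EPAS1 missed the threshold without OCRL siRNA replicate 3 (adjusted p = 0.0508).

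Genes of sterol response and cholesterol efflux are the setting of ABCA1 and ABCG1. Of 19 measured, 6 were lower, 1 was higher and 12 did not pass, with a median difference of -0.15. The caveolin CAV1 was lower by 0.74 (limma adjusted p = 1.77e-04), the sterol synthesis enzyme gene HMGCS1 by 0.50 (0.0010) and, by 1 of its 2 probe sets, the fatty acid synthase FASN by 0.48 (7.49e-04). The endosomal cholesterol exporter NPC1 was higher by 0.57 (1.71e-04) in the brighter of its 2 probe sets.

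Enzymes of glutathione and conjugation, some of which make substrates of ABCC1, ABCC2 and ABCC3, went both ways. Of 23 measured, 7 were higher, 4 were lower and 12 did not pass (median 0.06). NQO1 was higher by 1.02, SULT1A1 by 0.73 and glutathione reductase GSR by 0.40, and the carboxylesterase CES2 was lower by 0.47 (limma adjusted p = 3.22e-05, 1.07e-04, 0.00128 and 0.0020). SULT1A1 has near-identical paralogs, whose signal may be mixed with its own.

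Solute carriers of drugs and organic ions, which share substrates with the ABC exporters, numbered 25 measured genes, of which 2 were higher, 4 were lower and 19 did not pass (median -0.04), a share near the 26.0% of all genes that passed. SLCO4A1 (0.67, limma adjusted p = 1.31e-04) and the prostaglandin carrier SLCO2A1 (0.54, 2.80e-04) were higher. The copper importer SLC31A1 (-0.73, 1.75e-04) and SLCO4C1 (-0.56, 8.73e-04) were lower, SLCO4C1 by its brighter probe set.

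Membrane scaffold and trafficking genes had 3 of 19 higher and 6 lower (median -0.05). The brush border scaffold PDZK1 was lower by 0.82 (limma adjusted p = 1.31e-04) and CAV2 by 0.43 (0.00171), and FLOT1 was higher by 0.34 (0.00475) in 2 of its 4 probe sets. The count was 5 in place of 9 without OCRL siRNA replicate 3.

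Heme and porphyrin genes, the setting of ABCB6, were higher in 6 of 16 and lower in 1 (median 0.10), where 15.5% of all genes were higher and 10.5% lower. Heme oxygenase HMOX1 was higher by 0.97 (limma adjusted p = 8.8e-05), BLVRB by 0.86 (6.17e-04), the first enzyme of heme synthesis ALAS1 by 0.41 (8.75e-04) and, in 2 of its 3 probe sets, UROD by 0.25 (0.0067). This count was 4 in place of 7 without control siRNA replicate 2 or OCRL siRNA replicate 2.

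Of 24 cyclic nucleotide genes, which bear on substrates of ABCC4, 1 was higher and 2 were lower (median -0.06). PDE4A was higher by 0.61 in 1 of its 4 probe sets (limma adjusted p = 0.00126), and PRKAR2A (-0.24, 0.0132) and, in 1 of its 3 probe sets, ADCY2 (-0.40, 0.0337) were lower. PRKAR2A missed the threshold without replicate 3 of either group (0.0534 and 0.0556), and ADCY2 without control siRNA replicate 2 or 3 or OCRL siRNA replicate 1 or 3 (0.0795 to 0.102). With 1 array left out, the count ran from 1 without OCRL siRNA replicate 3 to 6 without control siRNA replicate 1, and it was 7 with array weights or with trend and robust settings.

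Most markers of cell identity did not pass outside the epithelial list, beside 26.0% of all genes that did. Of 12 proximal tubule markers measured out of 16, SLC4A4 (-1.08) and PDZK1 (-0.82) were lower and ANPEP, dim on every array, was higher (0.56), although not past the threshold without replicate 1 or 2 of the control siRNA or replicate 2 or 3 of the OCRL siRNA (limma adjusted p = 0.0575 to 0.0771). LRP2, AQP1, ALPL and ANPEP lay below the lower quartile on all 6 arrays, so several defining markers of the labelled tissue were at or near background. The summed linear intensity of that list was 2335 to 2396 in OCRL siRNA cells and 4133 to 4236 in control siRNA cells. Without SLC4A4 and PDZK1 it was 400 to 473 in OCRL siRNA cells and 400 to 479 in control siRNA cells, and the mean log2 level of all 12 was 5.93 to 6.08 in OCRL siRNA cells and 6.05 to 6.20 in control siRNA cells. Of 10 epithelial markers 6 were lower, among them KRT7 (-1.49), CDH6 (-1.04) and EPCAM (-0.81), and CLDN1 was higher (0.46), with sums of 20192 to 20739 and 26005 to 27415 in OCRL siRNA and control siRNA cells. The 4 other CDH6 probe sets differed by -0.44 to -0.10, and 2 of them did not pass. Among other lists, 1 of 11 distal nephron markers (SCNN1G, -0.22), 2 of 5 podocyte markers (PODXL, -0.51, and SYNPO, -0.28) and 1 of 10 fibroblast markers (LUM, -0.61) were lower, and 1 of 8 endothelial markers (ENG, 0.27) was higher. The dimmer ENG probe set differed by -0.16 and did not pass. SYNPO missed the threshold without any one of the 6 arrays (limma adjusted p = 0.055 to 0.135), with the replicate number as a block (0.093), which left 1 of 5 podocyte markers, and with array weights (0.0608). SCNN1G missed it without control siRNA replicate 2 or OCRL siRNA replicate 1 or 3 (0.0697 to 0.0845) and with trend and robust settings (0.0842). SCNN1G also lay below the lower quartile on all 6 arrays. Of 8 leukocyte markers 0 passed by limma, with 0 at an unadjusted p under 0.05, and CD3E had the smallest p (difference -0.17, adjusted p = 0.236). Their part in the changes of the transporters was not tested. Off-target effects of the siRNA and effects of the loss of OCRL cannot be told apart in this design.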

How the data were processed

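The authors deposited 1 column of log2 intensities per array. The submitters' processing notes name affy and RMA, and no version is given in the sources used here. RMA equalises the distributions of the arrays, which hides any shift common to most genes and shrinks differences of dim probe sets. After the 62 AFFX controls were dropped from 22277 probe sets, 22215 were tested. The platform annotation gave 1 symbol for 19064, several for 1043 and none for 2108. OCRL siRNA and control siRNA arrays were compared in limma 3.58.1 (R 4.3.3; lmFit and eBayes with no covariate), and p-values were adjusted by Benjamini-Hochberg over all tested probe sets, at a threshold of 0.05. SE is the moderated standard error. A gene outside the 10 members was read by its brightest probe set. The small number of arrays limits the precision.

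The 10 members and all gene lists were chosen with earlier results of these data known. Up to 4 genes of a list were named, those that passed with the smallest p, or the 1 with the smallest p where none passed. All other ABC genes that passed were named. CROT, SLC25A40, ABCF2, TAP2, ABCB11 and the markers below the lower quartile were named after their values were seen. Alternatives were a replicate block, each array left out, quantile normalization, median centring, trended and robust variance, array weights, removal of dim probe sets, a 1.5-fold minimum, removal of probe sets whose names end in _s_at or _x_at, and other ways to pick a probe set for a gene. The proximal tubule sum without SLC4A4 and PDZK1 was added after seeing the data. The fit was also run on simulated data with independent noise and a smaller share of changed probe sets than passed here. No result given here rests on that run. Plots were made in matplotlib 3.10.9 (Python 3.11.15).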

Additional observations from a re-analysis of the deposited data

How the results depend on the processing

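For the 17 member probe sets 221 values were compared over the alternatives: 182 kept direction and side of the threshold, 26 lost the threshold, 6 gained it and 7 changed sign, all 7 in probe sets that did not pass. The difference of ABCB4 was 0.0063 after quantile normalization and ran from -0.057 to 0.0062 with 1 array left out. That of ABCG2 was -0.038 after median centring and ran from -0.13 to 0.16 with 1 array left out. That of the brighter ABCG1 probe set ran from -0.079 to 0.0095 with 1 array left out. The ABCB1, shared, ABCC4 and brighter ABCC1 and ABCC3 probe sets passed in every alternative that tested them without a fold minimum. With a 1.5-fold minimum, 806 of all probe sets passed in place of 5137 (477 in place of 2939 higher, 329 in place of 2198 lower), 3 member probe sets (0 higher, 3 lower), 17 of 225 genes of the other lists in place of 63, and 0 other ABC genes by limma, of which 8 had an unadjusted p under 0.05. Without the probe sets whose names end in _s_at or _x_at, which tests fewer probe sets, these counts were 2348 (1274 higher, 1074 lower), 4 (0 higher, 4 lower), 31 and 2. Both ABCC3 probe sets were among those removed, so the rise of ABCC3 was not tested in that setting. Only 1 member probe set passed as higher with the replicate block, after quantile normalization and after median centring. In each of these the dimmer ABCC3 probe set missed the threshold, and why it did was not tested.

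The replicate numbers were not taken as pairs in the main fit. Deviations of same-numbered samples correlated at 0.14, 0.12 and -0.0095 for numbers 1, 2 and 3, and those of differently numbered samples at -0.18 to 0.10. Numbers 1 and 2 thus lay above every differently numbered pair, so these values do not settle whether the samples were paired. With the replicate block 4571 of all probe sets passed in place of 5137. Leaving out 1 array gave 5 to 8 member probe sets (1 to 3 higher, 4 to 7 lower), 4 to 7 other ABC genes, 49 to 66 genes of the other lists, 3576 to 4898 of all probe sets (2108 to 2735 higher, 1468 to 2163 lower) and an OCRL difference of -2.05 to -1.99. Dim probe sets limit what can be said of ABCB4, ABCC2, ABCG1 and ABCG2.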
